A study of Mus musculus with 9 samples.

Results

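The genes described here encode 3 receptors that sense foreign chemicals, the partners and feedback genes of one of them, and 4 cytochrome P450 enzymes of the Cyp3a family. They are Nr1i2 (the pregnane X receptor, PXR), Nr1i3 (the constitutive androstane receptor, CAR), Ahr (the aryl hydrocarbon receptor), Arnt, Ahrr, Tiparp, Cyp3a44, Cyp3a13, Cyp3a11 and Cyp3a25. Each was taken as the row of the expression table with that symbol, which gave 10 of 54146 genes. The genes had been selected on results of the same genotype comparison, so their genotype differences are given below as a description, with a standard error (SE) and no p-value.

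RNA-seq of colonic mucosa (per the study's methods, RNA from colonic crypts) covered 9 C57BL/6J mice at 15 wk of age, each mouse being 1 library and 1 replicate. A group of 5 mice, 2 females and 3 males, carried ApcMin/+, a heterozygous germline mutation of the tumor suppressor Apc. The other 4, 3 females and 1 male, were ApcMin/+; p16cis/cis, with the same Apc mutation and, on both alleles of p16 (Cdkn2a), a knocked-in cis-element through which methylation spreads over the p16 promoter. Every mouse therefore carried the Apc mutation, the labels name no treatment, and both alterations are germline and not limited to the epithelium.

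The libraries held 15745098 to 17885918 reads on genes in ApcMin/+ mice and 13523500 to 14900228 in ApcMin/+; p16cis/cis mice. Values are normalized counts, that is gene reads scaled by the size factor of the library, and 3 reads corresponded to a normalized count of 2.85 to 4.79 depending on the mouse. Cdkn2a itself was listed at 0 in all 9 mice, so its level cannot check the genotype labels. Mitochondrially encoded genes took 8.74% to 15.6% of reads in ApcMin/+ mice and 19.3% to 29.8% in ApcMin/+; p16cis/cis mice, with no overlap between the groups. Colonic epithelium was well represented in both groups: the summed level of 7 epithelial markers was 178103 to 258414 in ApcMin/+ and 172925 to 236932 in ApcMin/+; p16cis/cis mice, and none of the 7 passed the genotype test of limma, with 3 at an unadjusted p under 0.05 (0 past the threshold in edgeR and 3 in DESeq2). In bulk mucosa, fewer cells of a type and less RNA per cell cannot be told apart.

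PXR and CAR are nuclear receptors that bind drugs, steroids and bile acids, pair with retinoid X receptors and switch on genes of drug oxidation, conjugation and export. Ahr is a cytosolic receptor of aromatic hydrocarbons and of indoles made by gut bacteria. Once bound, it moves to the nucleus and pairs with Arnt, and it induces its own brakes, Ahrr, which competes for Arnt, and Tiparp, an ADP-ribosyltransferase that dampens Ahr. Cyp3a enzymes oxidize a large share of medicines and steroids. Cyp3a11 is the major drug-induced form of mouse liver and a standard PXR target, whereas Cyp3a13 is known as a form expressed in the intestine.

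Of the 4 Cyp3a genes, Cyp3a13, Cyp3a44 and Cyp3a25 were lower in ApcMin/+; p16cis/cis mice with no overlap between the groups. So were 8.95% of the genes tested for genotype, which leave out Cyp3a25 as too low. For Cyp3a25 the nearest values were 2 reads in ApcMin/+ replicate 5, below 3 reads, and 0 reads in the other group. Cyp3a11 is the standard PXR target of the family. For these reasons the stretches just upstream of the 4 genes are shown. They come from RefSeq (GRCm38.p6), in which 9 of the 10 genes had a window and Ahr had none, and they are written 5′ to 3′ on the gene's strand, ending before the outermost transcript start in GENCODE M21 (GRCm38). All 4 genes lie on the minus strand of chromosome 5. Capitals mark the nuclear receptor half-sites AGTTCA and AGGTCA on either strand, so that TGAACT and TGACCT are the same motifs read from the other strand. The windows are chr5:145805875-145806124 for Cyp3a44, chr5:145879965-145880104 for Cyp3a11, chr5:146009619-146009868 for Cyp3a25 and chr5:137921620-137921869 for Cyp3a13.
Cyp3a44: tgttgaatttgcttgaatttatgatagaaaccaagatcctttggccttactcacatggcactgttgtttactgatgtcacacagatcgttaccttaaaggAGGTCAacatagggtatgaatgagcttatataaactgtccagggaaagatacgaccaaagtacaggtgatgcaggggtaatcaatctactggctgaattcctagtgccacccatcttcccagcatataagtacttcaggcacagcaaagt
Cyp3a11: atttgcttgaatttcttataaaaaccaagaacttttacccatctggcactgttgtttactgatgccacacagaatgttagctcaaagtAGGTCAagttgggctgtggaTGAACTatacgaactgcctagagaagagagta
Cyp3a25: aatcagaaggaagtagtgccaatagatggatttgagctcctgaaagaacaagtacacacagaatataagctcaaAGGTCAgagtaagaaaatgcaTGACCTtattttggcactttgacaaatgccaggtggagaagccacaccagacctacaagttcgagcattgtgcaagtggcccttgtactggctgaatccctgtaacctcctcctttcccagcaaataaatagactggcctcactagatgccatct
Cyp3a13: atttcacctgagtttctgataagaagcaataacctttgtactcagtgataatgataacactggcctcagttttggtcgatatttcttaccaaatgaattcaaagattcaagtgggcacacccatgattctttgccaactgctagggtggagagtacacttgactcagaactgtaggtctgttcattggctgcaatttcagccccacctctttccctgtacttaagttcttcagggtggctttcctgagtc

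AGGTCA was found 1 time upstream of Cyp3a44, 1 time upstream of Cyp3a11 and 2 times, on opposite strands, upstream of Cyp3a25. AGTTCA was found 1 time, upstream of Cyp3a11. Neither half-site was found in the window of Cyp3a13, which says only that these letters are not in it. Among 32817 RefSeq windows of 250 bases, 14.03% held AGGTCA and 11.85% held AGTTCA on either strand. A match of this kind is a description of the letters and not a binding site.

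The feedback genes of the Ahr pathway carry the core of the Ahr and Arnt binding motif, GCGTG, which reads CACGC from the other strand and is in capitals below. The windows are chr13:74292332-74292581 on the minus strand for Ahrr and chr3:65528197-65528409 on the plus strand for Tiparp.
Ahrr: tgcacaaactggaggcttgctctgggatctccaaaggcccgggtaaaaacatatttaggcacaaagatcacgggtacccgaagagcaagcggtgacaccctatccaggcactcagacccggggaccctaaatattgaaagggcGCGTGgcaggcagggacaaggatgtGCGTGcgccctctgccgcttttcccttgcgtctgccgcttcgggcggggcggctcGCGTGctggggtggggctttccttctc
Tiparp: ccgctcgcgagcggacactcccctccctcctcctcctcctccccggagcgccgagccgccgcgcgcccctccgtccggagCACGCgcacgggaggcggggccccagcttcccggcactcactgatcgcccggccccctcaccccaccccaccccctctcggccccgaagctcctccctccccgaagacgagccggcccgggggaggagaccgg

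GCGTG was found 3 times upstream of Ahrr and 1 time each upstream of Tiparp and Arnt, and it was not in the windows of Nr1i2, Nr1i3 or the 4 Cyp3a genes. It is a common motif, present in 28.1% of all windows on either strand.

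The 10 genes covered a wide range of levels. To compare genes, each normalized count was divided by the length of the gene's longest coding transcript. On this scale of normalized count per kilobase, the mean over 9 mice was 971 for Cyp3a13, 686 for Nr1i2, 216 for Arnt, 95.0 for Tiparp and 49.1 for Ahr. The remaining genes were far lower, at 5.88 for Nr1i3, 4.45 for Cyp3a44, 3.50 for Cyp3a25, 0.898 for Ahrr and 0.541 for Cyp3a11. In ApcMin/+ mice alone the first 3 of these stood in another order, with means of 7.84 for Cyp3a44, 6.31 for Cyp3a25 and 6.15 for Nr1i3. The order of the leading pair depended on genotype. In ApcMin/+ mice the level per kilobase of Cyp3a13 was 849 to 1800, above that of Nr1i2 at 560 to 810 in every mouse, whereas in ApcMin/+; p16cis/cis mice the 2 genes overlapped, at 507 to 729 for Cyp3a13 and 660 to 730 for Nr1i2. Neighbours at the low end, Nr1i3, Cyp3a44 and Cyp3a25 in ApcMin/+ mice, also overlapped.

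**Figure D1:**
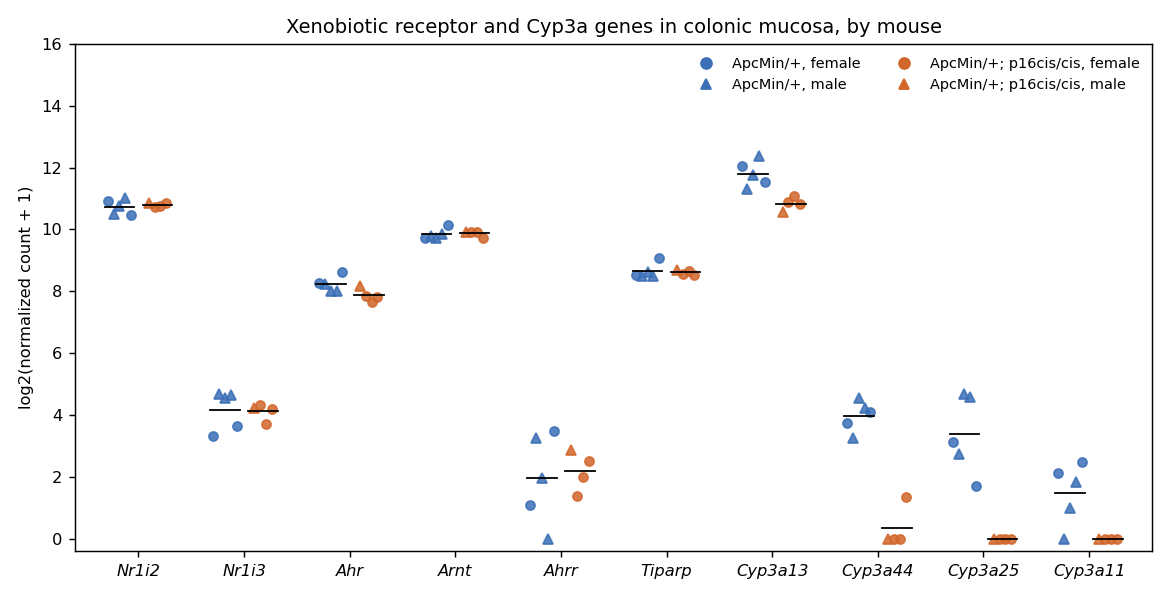
Level of the 10 genes in each mouse as log2(normalized count + 1), with ApcMin/+ mice in blue, ApcMin/+; p16cis/cis mice in orange, circles for females, triangles for males and black bars for group means. The receptors and their partners overlap between genotypes, Cyp3a13 and Cyp3a44 do not, and Cyp3a25 and Cyp3a11 lie at 0 in all 4 orange points.

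The levels of the 3 xenobiotic receptors overlapped between the genotypes, and PXR was the most abundant of them per kilobase. Nr1i2 had normalized counts of 1946.1, 1452.9, 1739.4, 2066.9 and 1430.2 in ApcMin/+ mice and of 1857.5, 1686.1, 1720.6 and 1862.6 in ApcMin/+; p16cis/cis mice. All 4 values of the second group lay inside the range of the first. The log2 fold change, here and below as ApcMin/+; p16cis/cis minus ApcMin/+ on log2(normalized count + 1), was 0.06 (SE 0.12) for Nr1i2.

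Nr1i3, which encodes CAR and is known mainly from liver, was near the detection limit, with 131 reads in 9 mice. Its normalized counts were 8.93, 24.7, 22.4, 24.2 and 11.4 in ApcMin/+ mice and 17.7, 19.1, 12.0 and 17.2 in ApcMin/+; p16cis/cis mice. The groups overlapped, and the log2 fold change was -0.05 (SE 0.39). Exons of Nr1i3 share 3304 bases with exons of Tomm40l, a subunit of the mitochondrial import pore on the opposite strand, which had normalized counts of 159.3 to 261.6. Whether the counting used the strand is not given in the sources used here, so the reads of Nr1i3 cannot be told apart from those of Tomm40l in the shared bases.

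Ahr had normalized counts of 304.6, 297.6, 255.6, 256.8 and 393.9 in ApcMin/+ mice and of 285.4, 231.3, 201.4 and 225.6 in ApcMin/+; p16cis/cis mice. A group of 3 of the 4 ApcMin/+; p16cis/cis mice lay below every ApcMin/+ mouse, and replicate 1, the only male, lay inside their range. The log2 fold change was -0.35 (SE 0.16). Between females alone it was -0.66, from 2 against 3 mice. The higher of the 2 ApcMin/+ females was replicate 5, at 393.9. With that mouse left out and both sexes kept, the log2 fold change was -0.25.

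Arnt, the shared partner that Ahr and the hypoxia-inducible factors need to bind DNA, had normalized counts of 848.1, 892.8, 849.7, 925.4 and 1137 in ApcMin/+ mice and of 961.0, 955.5, 976.7 and 853.8 in ApcMin/+; p16cis/cis mice. The groups overlapped, with a log2 fold change of 0.02 (SE 0.11). Arnt exceeded Ahr in every mouse, by a log2 ratio of 1.48 to 1.85 in ApcMin/+ and of 1.75 to 2.28 in ApcMin/+; p16cis/cis mice, without a correction for length.

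The feedback genes of Ahr did not separate the genotypes either. Tiparp had normalized counts of 370.5, 355.6, 392.2, 358.5 and 539.2 in ApcMin/+ mice and of 415.5, 379.6, 399.7 and 371.3 in ApcMin/+; p16cis/cis mice. The log2 fold change of Tiparp was -0.03 (SE 0.14), and replicate 5 of ApcMin/+, which also had the highest Ahr and Arnt, stood above the other 8 mice. Ahrr was barely detected, with 33 reads in 9 mice and 0 to 9 reads per mouse, and it was too low for the test. The same library, ApcMin/+ replicate 5, had the highest summed level of 8 immune markers, at 1545 against 155 to 1212 in the other ApcMin/+ mice and 294 to 442 in ApcMin/+; p16cis/cis mice, and the part of immune cells in the Ahr, Arnt and Tiparp levels was not tested.

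Of the members, Cyp3a13, Cyp3a44 and Cyp3a25 had lower levels in ApcMin/+; p16cis/cis mice without overlap between the groups. The same held for 8.95% of all genes tested, among which Cyp3a25 was too low to be counted. The separation of Cyp3a25 rested on 2 reads in ApcMin/+ replicate 5, a normalized count of 2.27. There 3 reads corresponded to 3.41, so at a floor of 3 reads that mouse does not stand apart from 0. Cyp3a13 carried nearly all Cyp3a reads, 21736 of 21878. Its normalized counts were 4244.8, 2509.3, 3451.6, 5322.2 and 2969.4 in ApcMin/+ mice and 1497.6, 1874.3, 2154.8 and 1812.5 in ApcMin/+; p16cis/cis mice. The groups did not overlap, the nearest values being those of ApcMin/+ replicate 2 and ApcMin/+; p16cis/cis replicate 3. The mean of Cyp3a13 was 3699 ± 1112 (SD, n = 5) against 1835 ± 270 (SD, n = 4), a ratio of 2.02 between the means, and the log2 fold change was -0.97 (SE 0.20), a fold just under 2.

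Within each mouse, Cyp3a13 was lower relative to Nr1i2, which follows from the levels of both genes given above and is not a separate result. The log2 ratio of the normalized counts of Cyp3a13 and Nr1i2 averaged 1.06 ± 0.21 (SD, n = 5) in ApcMin/+ mice, compared with 0.03 ± 0.27 (SD, n = 4) in the other genotype. The ranges, 0.79 to 1.36 and -0.31 to 0.32, did not overlap. The ratio of Cyp3a13 to Abcb1a, the drug exporter P-glycoprotein and another PXR target, did overlap, at a log2 ratio of -1.28 to -0.26 in ApcMin/+ and -1.42 to -0.46 in ApcMin/+; p16cis/cis mice. The ratio of Cyp3a13 to the epithelial marker Epcam overlapped too, at -3.72 to -2.51 and -4.13 to -3.64 on the log2 scale. Its means were -3.22 and -3.81, and the overlap came from ApcMin/+ replicate 2. Epcam itself was lower without overlap, at 27841 to 38616 and 24444 to 26913 (log2 fold change -0.38). The log2 fold changes of the other epithelial markers were 0.39 for Krt18, 0.005 for Cdh1, -0.03 for Krt8, -0.03 for Krt19, -0.25 for Cdx2 and -0.30 for Vil1.

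**Figure D2:**
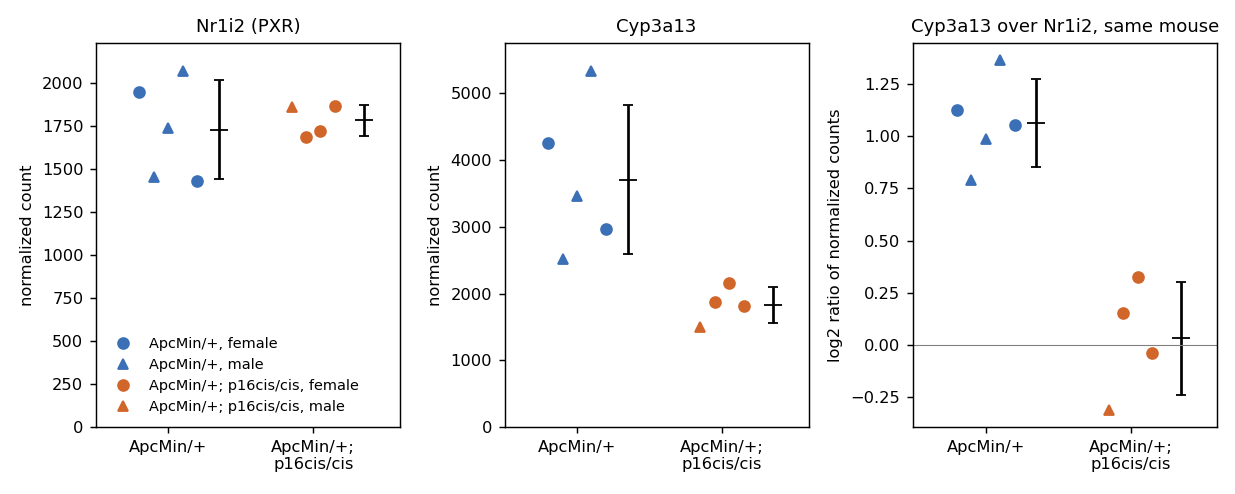
Normalized counts of Nr1i2 and Cyp3a13 and the log2 ratio of both in the same mouse, with 1 point per mouse and the group mean ± SD beside the points. Nr1i2 overlaps between genotypes, whereas Cyp3a13 and its ratio to Nr1i2 are lower in every ApcMin/+; p16cis/cis mouse.

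The other 3 Cyp3a members are best known from liver and were seen in few reads, nearly all of them in ApcMin/+ mice. Cyp3a44 had 11, 9, 23, 14 and 14 reads in ApcMin/+ mice and 0, 0, 0 and 1 in ApcMin/+; p16cis/cis mice, or normalized counts of 8.56 to 22.4 against 0 to 1.57. Per unit of depth this was a ratio of 41.7 between 71 reads and 1 read, with an exact 95% counting interval of 7.24 to 1668. The interval pools the reads of each genotype and covers counting error only and not the spread between mice. Since the gene was selected on this comparison, the interval is no test of genotype. The fitted log2 fold change was -3.63 (SE 0.54) and depends on the pseudocount of 1, reaching -6.19 with a pseudocount of 0.1.

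Cyp3a25 had 7, 6, 25, 18 and 2 reads in ApcMin/+ mice and none in the 4 ApcMin/+; p16cis/cis mice. Its mean normalized count of 12.6 ± 10.3 (SD, n = 5) was at least 2.84-fold higher than that of the other group taken at a floor of 3 reads per library. On the measure used for Cyp3a44, the ratio of reads per unit of depth, the exact 95% counting interval of Cyp3a25 began at 8.93. That interval again pools the mice, covers counting error only and is no test of genotype. The 2 ApcMin/+ mice with the most reads were males, replicates 3 and 4. Cyp3a11 had 3, 0, 1, 2 and 4 reads in ApcMin/+ mice and none in ApcMin/+; p16cis/cis mice, and its mean was under the floor in both groups, so no fold is given. Of the other Cyp3a genes, Cyp3a16, Cyp3a41a, Cyp3a41b and Cyp3a57 were listed at 0 in every mouse, and Cyp3a59 had 2 reads.

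Summed over the Cyp3a genes other than Cyp3a13, the reads were 22, 15, 50, 34 and 20 in ApcMin/+ mice and 0, 0, 0 and 1 in ApcMin/+; p16cis/cis mice. The share of Cyp3a reads on Cyp3a13 was accordingly 98.6% to 99.4% in ApcMin/+ and 99.9% to 100% in ApcMin/+; p16cis/cis mice.

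**Figure D3:**
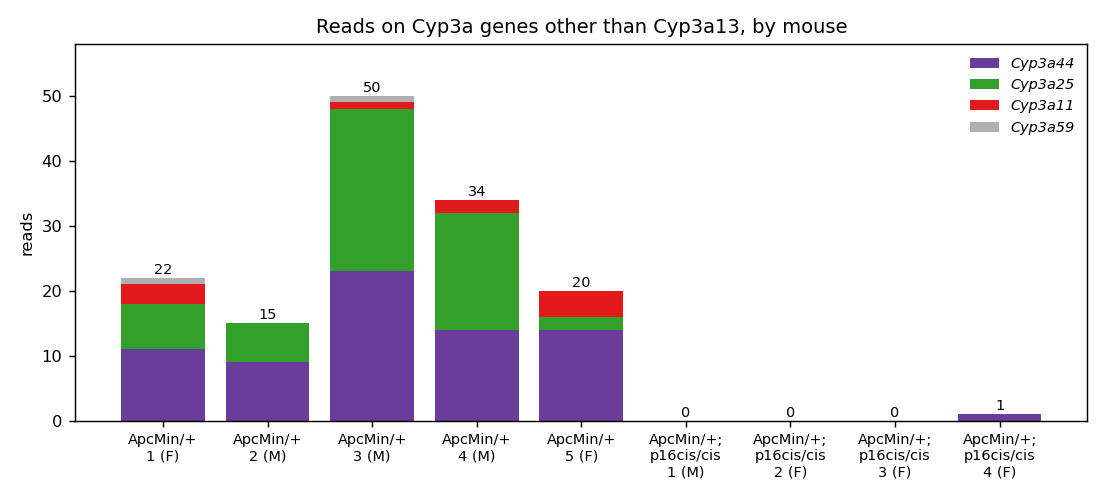
Reads on Cyp3a44, Cyp3a25, Cyp3a11 and Cyp3a59 in each mouse as stacked bars from 0, with the total above each bar and the replicate number and sex (F, M) below. All 5 ApcMin/+ mice hold 15 to 50 reads, and the 4 ApcMin/+; p16cis/cis mice hold 1 read in all.

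These low counts touch near-identical genes. The coding sequence of Cyp3a44 was 94.9% identical to that of Cyp3a11 and 95.8% to that of Cyp3a41a, and that of Cyp3a25 was 97.5% identical to Cyp3a59. Of the 50-base stretches of the longest coding transcript, 26.5% in Cyp3a44, 26.8% in Cyp3a25 and 14.8% in Cyp3a11 also occurred in a transcript of another gene, and 98.6% did so in Cyp3a41a. How reads were divided among the copies is therefore uncertain for Cyp3a44, Cyp3a25 and Cyp3a11. No 50-base stretch of Cyp3a13 was shared, and its coding sequence was at most 77.1% identical to the other Cyp3a genes.

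Markers of other tissues with high Cyp3a expression were compared between the genotypes. Of all genes tested, 8.75% were lower and 8.14% higher at a limma adjusted p under 0.05. Of 6 liver markers, Serpina1a and Fgb were at 0 in all 9 mice and Cyp2e1 was at 1.57 or less, while the summed level, carried by Ttr, was 1007 to 1962 in ApcMin/+ and 1775 to 2086 in ApcMin/+; p16cis/cis mice. Of the 3 liver markers tested, 2 were higher in ApcMin/+; p16cis/cis mice, Ttr by 0.63 (limma adjusted p = 0.0384) and Apoa2 by 1.10 (limma adjusted p = 0.0237) on the log2 scale. Of 9 small intestinal markers, Lct and Apoc3 were under 10 in every mouse. Sis, the brush border sucrase-isomaltase, was at 78.0 to 103 in ApcMin/+ and at 1.57 to 20.7 in ApcMin/+; p16cis/cis mice, and it fell with a log2 fold change of -3.05 (SE 0.52, limma adjusted p = 0.00509). The sum over the 9 markers overlapped between the groups, at 755 to 2111 and 518 to 926. The part of Sis-expressing cells in the low Cyp3a genes was not tested.

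Markers of other cell types varied between mice, and some passed the genotype test, as did 8.75% (lower) and 8.14% (higher) of all genes tested. The summed level of 9 colonocyte markers, led by Car1, was 129439 to 271987 in ApcMin/+ and 93410 to 119090 in ApcMin/+; p16cis/cis mice, with 1 marker lower (Slc26a3) and 1 higher (Slc37a2) by the limma test. Its top value was ApcMin/+ replicate 4 alone, the others of that group being at most 147515. The same mouse had the highest Cyp3a13, Cyp2c55 and Aldh1a1 and the lowest immune sum, and without it the log2 fold change of Cyp3a13 was -0.83 and 7 PXR and CAR targets, described below, were lower and 1 higher. The sum of 6 crypt base markers was 3869 to 6539 and 6996 to 9289, also without overlap and in the opposite direction, with Mki67, a proliferation gene, the 1 marker that passed as higher. Without Mki67, a choice made after seeing the data, the sums overlapped, at 1719 to 3698 and 2939 to 4183. Immune markers were 155 to 1545 and 294 to 442, and stromal markers 231 to 674 and 155 to 332, with 2 of 8 and 1 of 7 lower in limma. With edgeR 3 immune markers and 1 stromal marker passed as lower. With DESeq2 3 immune and 3 stromal markers passed as lower and the immune marker Cd68 as higher, and the colonocyte marker Car1 also passed as lower. Goblet markers were 245768 to 401680 and 265073 to 539825, with 1 of 6 higher in limma (Spink4). In edgeR and DESeq2 Spink4 was also higher, and Zg16 passed as lower. Distal colon markers were 6447 to 11209 and 9172 to 12097, with 0 of 3 tested past the threshold in limma (2 at an unadjusted p under 0.05), edgeR or DESeq2. The part of these shifts, and of the mitochondrial share, in the Cyp3a levels was not tested beyond the fits named here. With the mitochondrial share as a covariate, the log2 fold changes were -1.26 for Cyp3a13 and -3.61 for Cyp3a44. No gene of 14410 passed the limma test in that fit, 798 having an unadjusted p under 0.05. Since the share did not overlap between the genotypes, the fit cannot tell share and genotype apart.

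In the fit over all genes (limma, 14410 genes that reached a normalized count of 10 in 4 or more mice), 7 of the 10 members were tested and Ahrr, Cyp3a11 and Cyp3a25 were too low. With a call set at an adjusted p under 0.05 and a fold over 2, 1 member, Cyp3a44, was called lower and 0 were called higher, where 1.64% and 1.83% of all genes tested were called lower and higher. Without the limit on the fold, 2 members, Cyp3a44 and Cyp3a13, passed as lower and 0 as higher, against 8.75% and 8.14% of all genes. The same 2 did not overlap between the groups, against 8.95% of all genes lower without overlap and 7.24% higher. Since the members were selected on this comparison, these counts describe them and are read no further. Cyp3a44 entered the test with 4 mice at 10 or more, all of them ApcMin/+, so it passed the filter only through the group in which it was higher.

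The median log2 fold change was -0.05 over the 7 members tested and -0.20 over 8 with Cyp3a25 at its bound, against -0.004 over all genes. The call of Cyp3a44 was lost where a mouse at 10 or more was left out (ApcMin/+ replicates 1, 3, 4 and 5), because it then no longer passed the filter. Cyp3a13 was called by edgeR and DESeq2, with log2 fold changes of -1.01 and -1.01. It was also called without ApcMin/+ replicate 2 (-1.10), without ApcMin/+ replicate 5 (-1.04) and without ApcMin/+; p16cis/cis replicate 3 (-1.05).

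Beyond the Cyp3a genes, textbook targets of PXR and CAR were mostly lower in ApcMin/+; p16cis/cis mice. Of 15 such genes, Cyp2c29 and Slco1a4 were at 0 in every mouse, Cyp2b10 and Abcb1b were too low for the test, and 11 were tested. Of the 11, 7 fell and 1 rose at a limma adjusted p under 0.05, 5 of the 7 by more than 2-fold, and 3 did not pass. Of all genes tested, 8.75% fell and 8.14% rose at that threshold, and 1.64% passed it and fell by more than 2-fold. The median log2 fold change of the 11 was -1.04. Without overlap between the groups, 6 were lower and 1 higher, against 8.95% and 7.24% of all genes tested. With edgeR the counts were 7 and 1, with DESeq2 8 and 1, and leaving out 1 mouse gave 7 to 9 lower and 1 higher. Over all genes, lower and higher together, 2434 passed in the main fit, 2469 with edgeR, 3251 with DESeq2 and 1177 to 3488 without 1 mouse. With the mitochondrial share as a covariate 0 passed and the median was -0.33, in a fit where no gene of 14410 passed. The share did not overlap between the genotypes, so that fit cannot tell share and genotype apart. The list was assembled with earlier results of these mice known, so these counts and the adjusted p-values of its genes below are a description. Among its genes, Cyp2c55 and Aldh1a1 were reported by the study as reduced, with qRT-PCR following its RNA-seq.

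The genes that fell include oxidizing, conjugating and exporting enzymes. Cyp2c55, a P450 that hydroxylates arachidonic acid, had normalized counts of 16063, 15332, 26601, 33905 and 18142 in ApcMin/+ mice and of 7279, 8595, 6492 and 5326 in ApcMin/+; p16cis/cis mice. It was lower in each mouse of the second group, with a log2 fold change of -1.62 (SE 0.24, limma adjusted p = 0.0026). Aldh1a1, which makes retinoic acid from retinal, went from 2699 to 6072 in ApcMin/+ to 793 to 1091 in ApcMin/+; p16cis/cis mice (log2 fold change -1.93, SE 0.21, limma adjusted p = 0.00102).

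Ugt1a1, the bilirubin glucuronosyltransferase, fell by 1.97 on the log2 scale (SE 0.33, limma adjusted p = 0.00455), from 463 to 857 in ApcMin/+ to 68.9 to 281 in ApcMin/+; p16cis/cis mice. Gsta1, a glutathione transferase, fell by 2.36 (SE 0.49, limma adjusted p = 0.0102), although its highest ApcMin/+; p16cis/cis value of 57.1 exceeded the lowest ApcMin/+ value of 54.5. Abcb1a fell by 1.04 (SE 0.16, limma adjusted p = 0.00334). Ugt1a1 shares exons with other Ugt1a genes and Gsta1 has close paralogs, so their reads may be split among copies.

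Smaller decreases were seen in Ces2a, a carboxylesterase that cleaves ester drugs, at -0.996 (SE 0.17, limma adjusted p = 0.00501), and in Abcc3, a basolateral exporter of conjugates, at -0.56 (SE 0.12, limma adjusted p = 0.0123). Gstm1, another glutathione transferase, went the other way, with 5043 to 7793 in ApcMin/+ and 8630 to 10729 in ApcMin/+; p16cis/cis mice (log2 fold change 0.58, SE 0.13, limma adjusted p = 0.0147). Por, the electron donor of microsomal P450 enzymes, Abcc2 and Alas1, the first enzyme of heme synthesis, did not pass, at limma adjusted p = 0.0663, 0.105 and 0.113 and log2 fold changes of -0.79, -1.30 and -0.47.

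**Figure D4:**
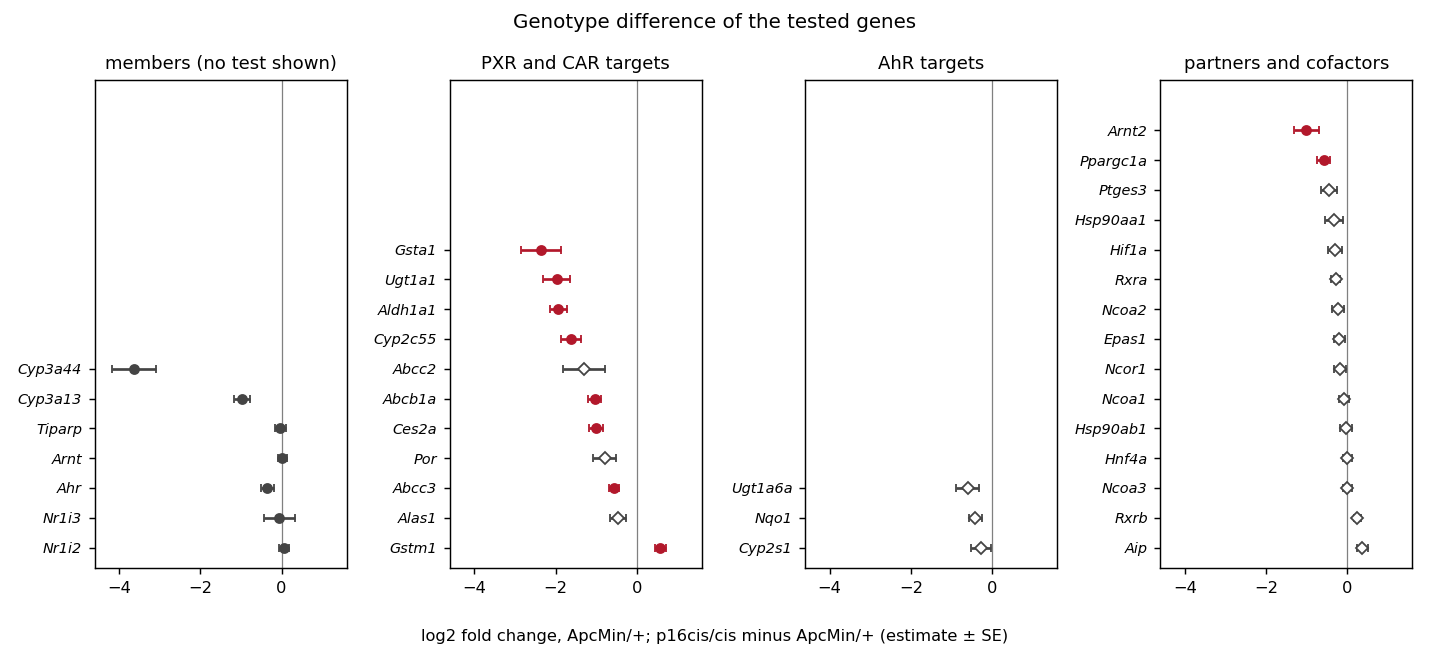
Log2 fold change with SE (ApcMin/+; p16cis/cis minus ApcMin/+) of the 7 members tested and of the tested PXR and CAR targets, Ahr targets and partners, with red circles for a limma adjusted p under 0.05, open diamonds for the rest and grey circles for members, for which no test is shown. Of the PXR and CAR targets 7 are lower and 1 is higher at that threshold, and of the 3 Ahr targets none is.

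Targets of Ahr showed no change past the threshold. Of 8 genes, the classical Cyp1a2 was at 0 in every mouse, and Cyp1a1, the most sensitive reporter of Ahr activity, was at 4.88 or less. Cyp1b1, Aldh3a1 and Ugt1a6b were also too low for the test. The 3 tested were Nqo1, a quinone reductase, at a log2 fold change of -0.41 (SE 0.16, limma adjusted p = 0.0955), Ugt1a6a at -0.60 (SE 0.28, limma adjusted p = 0.158) and Cyp2s1, an extrahepatic P450, at -0.27 (SE 0.24, limma adjusted p = 0.47). Their median was -0.41. An unadjusted p under 0.05 was reached by 1 of the 3 (Nqo1), edgeR and DESeq2 passed none, and without ApcMin/+ replicate 1 limma passed 1. In that last fit 1886 of 14219 genes passed, lower and higher together. Whether the PXR and Ahr targets differ from each other was not tested.

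Of 16 chaperones, dimerization partners and coregulators of these receptors, 15 were tested, with a median log2 fold change of -0.20. At a limma adjusted p under 0.05, 2 fell and 0 rose, against 8.75% and 8.14% of all genes tested. Without 1 mouse the number that fell was 0 to 4. It was 0 without ApcMin/+ replicate 1 or 2 or ApcMin/+; p16cis/cis replicate 2 or 4, and 4 without ApcMin/+ replicate 4. Over all genes, lower and higher together, 2434 passed in the main fit and 3488 without ApcMin/+ replicate 4. In the fits where 0 partners fell, 1177 to 1886 of all genes passed. The number that rose was 1 without ApcMin/+; p16cis/cis replicate 1 or 3. Of the 15, 2 were higher at an unadjusted p under 0.05, and edgeR and DESeq2 each passed 2 as lower and 0 as higher. Arnt2, a paralog of Arnt best known from the nervous system, fell from 31.8 to 91.9 in ApcMin/+ to 18.8 to 33.1 in ApcMin/+; p16cis/cis mice (log2 fold change -1.01, SE 0.32, limma adjusted p = 0.0479), with overlapping groups. Ppargc1a, a coactivator of nuclear receptors and of mitochondrial genes, fell by 0.59 on the log2 scale (SE 0.16, limma adjusted p = 0.0272).

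The most abundant partners did not pass. Hsp90ab1, a subunit of the chaperone that holds unbound Ahr in the cytosol, was at a mean of 29049 in ApcMin/+ and 28376 in ApcMin/+; p16cis/cis mice (log2 fold change -0.03, SE 0.14). Hnf4a, an epithelial factor that PXR target genes depend on, was at 17271 and 17235 (log2 fold change -0.003, SE 0.12), and the corepressor Ncor1 was at 3771 and 3329 (log2 fold change -0.18, SE 0.15).

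Sex was not used in choosing the genes, and several Cyp3a genes are known to differ between male and female mouse liver, so the members were also tested for sex (female minus male, with genotype in the limma fit). None of the 7 tested members passed, each at an adjusted p of 0.992, against 7 of 14410 genes (0.0486%), with 631 genes at an unadjusted p under 0.05. With edgeR 6 genes and with DESeq2 18 genes were called, and no member was among them. The largest difference was in Nr1i3, with a log2 fold change of -0.77 (SE 0.36, limma unadjusted p = 0.0564). The 2 ApcMin/+ females, at 8.93 and 11.4, were below the 3 ApcMin/+ males, at 22.4 to 24.7, whereas the ApcMin/+; p16cis/cis females were at 12.0 to 19.1 and the single male at 17.7.

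The other members had sex differences of -0.07 to 0.14 on the log2 scale. The log2 fold change was 0.14 (SE 0.21) for Cyp3a13, 0.11 (SE 0.60) for Cyp3a44, 0.08 (SE 0.18) for Ahr and -0.07 (SE 0.14) for Nr1i2. A test of whether the genotype difference depended on sex gave an adjusted p of at least 0.722 for the 7 members and 0 of 14410 genes past 0.05 in limma, with 979 genes and 1 member at an unadjusted p under 0.05 and a single male in one of the groups. Between the females alone, the genotype difference of Cyp3a13 was -0.87 on the log2 scale, from 2 ApcMin/+ and 3 ApcMin/+; p16cis/cis mice.

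Finally, the patterns of the main members over the 9 mice were compared after removing each genotype's mean from the log2 values. Among tested genes, the closest to Nr1i2 were Tusc2, Carhsp1 and Ifngr2, with Pearson r = 0.983, 0.978 and 0.958. Those closest to Ahr were Fam208a, RP23-313I4.3 and Gon4l, with Pearson r = 0.977, 0.974 and 0.966. Those closest to Cyp3a13 were Tmub1, the clone-named gene ENSMUSG00000096001.2 and Prss32, with Pearson r = 0.963, 0.960 and 0.957. Between members, Cyp3a13 and Nr1i2 had r = 0.772, Ahr and Tiparp r = 0.721, Ahr and Arnt r = 0.617, and Ahr and Cyp3a13 r = -0.593. These values describe 9 mice that share library depth and tissue composition within a mouse, and the highest were picked from all tested genes.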

How the data were processed

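RNA-seq of colonic mucosa from 5 ApcMin/+ and 4 ApcMin/+; p16cis/cis mice was used, with groups, sex and age as GEO's labels give them. Per the study's methods, libraries were sequenced on a BGISEQ-500 and reads were aligned with BOWTIE2, quantified with RSEM and compared with DESeq2. Versions, genome build, annotation and strand setting are not given in the sources used here. The authors deposited 1 table of signal values, gene counts divided by a size factor per mouse. The value of 1 read was recovered for each mouse, and 100% of positive values were whole reads within 0.01, so the counts before scaling were whole numbers. The 9 libraries differed from each other in at least 20964 genes, so none was a copy.

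Genotypes were compared with limma 3.58.1 (R 4.3.3) using a mean-variance trend on log2(normalized count + 1). Genes had to reach 10 in 4 or more mice, genotype was the only term, and p-values were adjusted over all genes by Benjamini-Hochberg. This test was planned as the main one on normalized values because the study's DESeq2 needs counts. On the recovered reads, edgeR 4.0.16 quasi-likelihood and DESeq2 1.42.0 were alternatives, with other scalings, filters, pseudocounts, covariates and each mouse left out. The fits were tested on simulated data. Same-numbered mice did not deviate together (r of -0.175 to 0.142), so no pairing by number was seen, which does not exclude one. The labels give no litter, cage or sequencing batch, so whether the mice of a genotype shared one was not tested.

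The members and gene lists were chosen with earlier results of these data known, so the genotype p-values of list genes are a description. All members and other Cyp3a genes were named. Of each list, the genes named are those called or with an adjusted p under 0.05 and the 3 of the highest mean, while Por, Abcc2, Alas1 and targets at or near 0 were named after their values were seen, as was the choice to recount the lists under each alternative. A gene of the partner list is not reported here and is left out of its counts. Coordinates, lengths and shared stretches come from GENCODE M21 (GRCm38), in which 54079 of 54146 identifiers were found, and promoter windows from RefSeq.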

Additional observations from a re-analysis of the deposited data

Results flagged for a closer look

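In 18 groups of values (each member in each genotype, leaving out Cyp3a11 and Cyp3a25 where every value was 0), the highest or lowest mouse was compared with the rest of its group by Dixon's criterion, and 3 values stood apart. Chance flags about 1 in 20 groups, or 0.9 here. Arnt in ApcMin/+ replicate 5 was at a normalized count of 1137, against 848.1 to 925.4 in the other 4 mice of the group. Tiparp in the same mouse was at 539.2, against 355.6 to 392.2. Cyp3a44 in ApcMin/+; p16cis/cis replicate 4 was at 1.567, a single read, against 0 in the other 3 mice, where any single read meets the criterion by construction.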

How the results depend on the processing

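Of the 7 members fitted, 1, Cyp3a44, was called for genotype in the main analysis, as were 501 of all 14410 genes. The count was 2 of 7 with edgeR (also Cyp3a13), where 517 of 14410 genes were called. With DESeq2 it was 3 of 10 (also Cyp3a13 and Cyp3a25), where 726 of 29936 genes were called. Without a filter on low values it was 2 of 10 (Cyp3a44 and Cyp3a25), where 558 of 29946 were called. It was 2 of 7 with sex as a covariate and with the replicate block, both adding Cyp3a13, where 331 and 473 of 14410 were called. It was 0 of 5 with a value of at least 10 required in every mouse, which removes Cyp3a44 by construction (339 of 12568 genes called). It was also 0 with the mitochondrial share as a covariate, where 0 genes of all were called. With Bonferroni, where 19 genes of all were called, it was 0. Between females alone it was 0 of 6, with 267 of 13530 genes called. Leaving out 1 mouse gave 0 to 2, while 273 to 750 of all genes were called. The count was 0 of 6 without ApcMin/+ replicate 1, 3 or 4. It was 2 of 7 without ApcMin/+ replicate 2 or ApcMin/+; p16cis/cis replicate 3. TMM scaling and a pseudocount of 0.1 gave 1 of 7, with 497 and 473 genes called. No member was called for sex under any alternative. The log2 fold change was negative for Cyp3a13 in 19 of 19 alternatives (-1.26 to -0.83), for Cyp3a44 in the 13 of 13 that tested it (-6.19 to -3.52) and for Ahr in 19 of 19 (-0.66 to -0.25). Those of Nr1i2 (-0.005 to 0.13), Arnt (-0.08 to 0.09), Tiparp (-0.22 to 0.08) and Nr1i3 (-0.27 to 0.67) took both signs. All these fits reuse the same mice for members selected on this comparison, so a shared sign is a description and no separate support. Over all genes the called count was 501, 726 with DESeq2, 750 without ApcMin/+ replicate 4 and 273 without ApcMin/+; p16cis/cis replicate 4. Depth limits Ahrr, Cyp3a11, Cyp3a25 and Cyp3a44 most, since each had under 100 reads in 9 libraries. The cause of these differences was not tested.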
